A study of Homo sapiens with 24 samples.

Results

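The 10 genes described here code for proteins of macroautophagy, taken by symbol from a list of names: ULK1, BECN1, WIPI1, ATG5, ATG7, MAP1LC3B, GABARAPL1, SQSTM1, BNIP3L and TFEB. All 10 were found among the 23354 genes of the count table, and all 10 passed the filter on low counts in both cell lines. The RNA came from MV4-11 and KG-1a, established human acute myeloid leukemia (AML) cell lines labelled as wild type and grown in IMEM with 10% FBS. Cells were untreated, or treated with 1 μM 8CA (8-chloro-adenosine) or 1 μM 8AA (8-amino-adenosine), for 8 h or 24 h, which gives 12 groups of 2 libraries, 24 libraries in all. 8CA and 8AA are analogs of the ribonucleoside adenosine that differ in the group carried at one position of the base, a chlorine atom or an amino group. The hours of the untreated libraries come from the sample titles. Nothing in the labels says that the libraries of a group came from separate cultures, so the p-values measure only the spread between these samples.

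Macroautophagy encloses cytoplasm in a double membrane, the autophagosome, and delivers it to the lysosome for breakdown. The ULK1 kinase complex starts the process, the class III PI3-kinase complex that contains BECN1 makes the lipid PI3P, and WIPI1 binds that lipid on the growing membrane. ATG7 and ATG5 belong to the conjugation systems that attach ATG8 proteins such as MAP1LC3B and GABARAPL1 to lipid, SQSTM1 and BNIP3L are receptors that bring cargo to them, and TFEB is a transcription factor of lysosome and autophagy genes. The RNA level of these genes is not a measure of autophagic flux.

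Each library held between 18633963 and 24520078 counts. Of 5 genes listed as markers of MV4-11, 4 were higher in its 12 libraries than in any KG-1a library, among them FLT3 at 415 to 596 CPM (TMM-normalized read counts scaled to a common library size) and LYZ at 2556 to 3672 CPM, and HOXA9 was lower, at 6.87 to 9.01 against 23.2 to 28.9 CPM. Of 4 listed for KG-1a, CD34 (340 to 656 CPM), PROM1 and CD7 were higher there, and KIT overlapped between the lines. Among the genes listed as markers shared by AML cells, SPI1 and CD33 were at most 8.07 and 1.06 CPM in KG-1a. The rest of that list was high there, with PTPRC at 709 to 820, MYB at 382 to 511 and RUNX1 at 445 to 499 CPM. The T cell genes CD3D, CD3E and CD2 were at 0 in every MV4-11 library. In KG-1a they lay at 181 to 273, 22.9 to 81.7 and 1.09 to 2.02 CPM. The epithelial markers EPCAM, CDH1 and KRT19 were at 0 in all 24 libraries. The libraries of KG-1a treated with 8AA for 24 h stood further apart than those of any other group, with a chi-square per degree of freedom of 12.3 between them against 1.43 to 5.20 in the other groups, so calls on named genes that rest on that pair are also given without each of its libraries.

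In the count table, ULK1 spans chr12:132379279-132407707 on the plus strand, BECN1 chr17:40962150-40976310 on the minus strand, WIPI1 chr17:66417422-66453653 on the minus strand, ATG5 chr6:106632352-106773695 on the minus strand and ATG7 chr3:11314010-11599139 on the plus strand. MAP1LC3B spans chr16:87425801-87438380, GABARAPL1 chr12:10365489-10375724, and SQSTM1 chr5:179233388-179265077, all on the plus strand, and TFEB chr6:41651716-41703997 on the minus strand. The submitters' notes name the builds hg19 and hg38 without saying which was used for what, and for 8 of the 10 members the table's span does not overlap the gene's span in GRCh38, so the table's positions are not of that build. The counts cover the exons of each gene, which add up to 1.911 kb for WIPI1 and 6.092 kb for SQSTM1, the shortest and longest of the 10.

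For 4 of the members, ULK1, WIPI1, MAP1LC3B and GABARAPL1, the sequence just upstream of the start is shown, because each had at least 1 change in KG-1a and 1 annotated start. The sequences are from RefSeq on build GRCh38.p14 and hold the 250 bases before the start, read 5′ to 3′ on the strand of the gene. Capitals mark the GC box GGGCGG on either strand (printed as CCGCCC on the other), and in MAP1LC3B also a match to TGACNNNGC, the core of the antioxidant response element. The window of ULK1 is chr12:131894372-131894621 on the plus strand, that of WIPI1 chr17:68457497-68457746 on the minus strand, that of MAP1LC3B chr16:87392086-87392335 on the plus strand, and that of GABARAPL1 chr12:10212627-10212876 on the plus strand.
ULK1: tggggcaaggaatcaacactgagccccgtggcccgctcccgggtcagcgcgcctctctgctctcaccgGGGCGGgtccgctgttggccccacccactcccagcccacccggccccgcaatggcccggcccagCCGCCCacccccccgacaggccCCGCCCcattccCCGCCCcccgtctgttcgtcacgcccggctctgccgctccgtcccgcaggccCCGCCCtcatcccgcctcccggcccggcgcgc
WIPI1: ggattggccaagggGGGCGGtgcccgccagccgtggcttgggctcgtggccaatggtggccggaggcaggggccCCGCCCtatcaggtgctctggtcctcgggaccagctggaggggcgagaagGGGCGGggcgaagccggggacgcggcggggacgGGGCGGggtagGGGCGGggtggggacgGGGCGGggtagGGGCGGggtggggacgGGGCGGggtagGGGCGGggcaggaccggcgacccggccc
MAP1LC3B: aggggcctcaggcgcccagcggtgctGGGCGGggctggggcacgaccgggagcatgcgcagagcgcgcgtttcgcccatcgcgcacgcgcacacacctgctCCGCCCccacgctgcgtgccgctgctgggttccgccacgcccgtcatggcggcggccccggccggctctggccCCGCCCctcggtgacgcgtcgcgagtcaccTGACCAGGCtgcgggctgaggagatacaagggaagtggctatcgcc
GABARAPL1: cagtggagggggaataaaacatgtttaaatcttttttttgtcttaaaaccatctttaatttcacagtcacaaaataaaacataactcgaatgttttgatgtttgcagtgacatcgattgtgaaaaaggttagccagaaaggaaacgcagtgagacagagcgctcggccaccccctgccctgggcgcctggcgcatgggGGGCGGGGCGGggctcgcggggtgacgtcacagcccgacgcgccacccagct

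These windows hold 5 GC boxes before ULK1, 9 before WIPI1, 3 before MAP1LC3B and 2, which overlap, before GABARAPL1. The first 3 have a GC content of 78.0%, 79.6% and 74.8%, and the window of GABARAPL1 has 51.6%, against a median of 58.0% over the 35116 windows of the RefSeq table. A window was found for 9 of the 10 members, all but BNIP3L, with 14 windows among them. A member was counted when any of its windows held a match, while the percentages below are of single windows. The counts of members and these percentages are thus not in the same unit. Of those 9 members, 8 have a GC box in at least 1 window, and 42.6% of all windows hold one. The E-box CACGTG, which TFEB and its relatives bind, is in none of the windows of the 9 members and in 6.34% of all windows, and its longer form, the CLEAR element, is likewise in none and in 0.308%. The amino acid response motif TGATGNAA was found in 0 of the 9 members and in 3.14% of all windows, and the forkhead motif GTAAACA in 0 and in 2.98%. The core TGACNNNGC is in 1 of the 9, MAP1LC3B, and in 10.9% of all windows. Both strands were searched, and a match is a description of these letters, not a binding site.

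Before treatment, the lines differed in most of these genes. Per kb of the exon length given in the table, the untreated MV4-11 libraries had most BECN1 (33.1 ± 1.42 CPM per kb, SD, n = 4) and SQSTM1 (27.5 ± 1.72), and least GABARAPL1 (1.34 ± 0.183) and WIPI1 (0.830 ± 0.285). In untreated KG-1a, MAP1LC3B led (38.9 ± 1.97 CPM per kb, SD, n = 4), followed by SQSTM1 (23.1 ± 1.25), BNIP3L (22.1 ± 2.94) and BECN1 (21.8 ± 0.698), and TFEB was last (0.208 ± 0.0393). The ranges of the 4 untreated libraries overlapped between neighbours in that order for BNIP3L and MAP1LC3B, TFEB and GABARAPL1, and GABARAPL1 and WIPI1 in MV4-11. In KG-1a they overlapped between SQSTM1 and BNIP3L, BNIP3L and BECN1, and WIPI1 and ULK1.

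**Figure D1:**
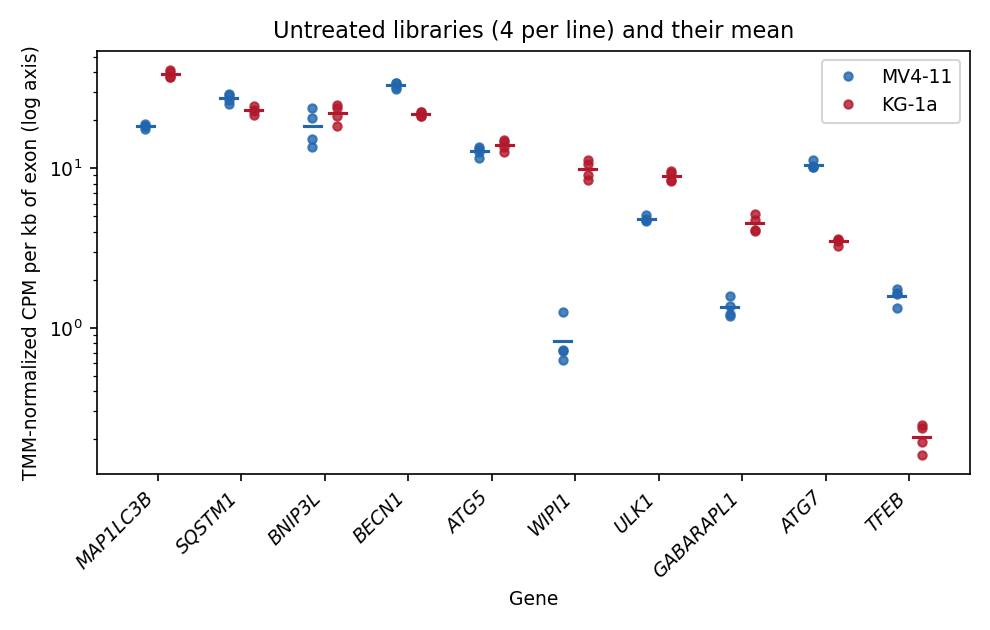
TMM-normalized CPM per kb of exon (log axis) of the 10 genes in the 4 untreated libraries of MV4-11 (blue) and KG-1a (red), genes ordered by the KG-1a mean; points are libraries and lines are means. WIPI1 and GABARAPL1 sit lower and TFEB and ATG7 higher in MV4-11, while the points of ATG5 and BNIP3L overlap.

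In a fit of all 24 libraries, 9 of the 10 members differed between the untreated lines (edgeR's quasi-likelihood test, adjusted p under 0.05), where 87.4% of the 14055 genes tested did, so a difference between the lines was the rule and not particular to these genes. WIPI1 was lower in MV4-11 by a log2 difference of -3.48 (SE 0.13, adjusted p = 2.58e-18), with 24 to 53 reads per untreated MV4-11 library against 294 to 425 in KG-1a. GABARAPL1 was lower by -1.66 (SE 0.09, adjusted p = 7.21e-15), MAP1LC3B by -0.999 (SE 0.04, adjusted p = 2.19e-17) and ULK1 by -0.79 (SE 0.05, adjusted p = 2.91e-14). TFEB was higher in MV4-11 by 3.04 (SE 0.14, adjusted p = 3.74e-16), with 153 to 208 reads per untreated library against 17 to 27 in KG-1a. ATG7, the E1-like enzyme of both conjugation systems, was higher by 1.68 (SE 0.05, adjusted p = 1.82e-19), BECN1 by 0.69 and SQSTM1 by 0.34. BNIP3L was lower in MV4-11 by -0.21 (adjusted p = 0.0124), a call that was lost without MV4-11 untreated 8 h replicate B (adjusted p = 0.069), KG-1a untreated 8 h replicate B (0.0909) or MV4-11 untreated 24 h replicate A (0.0764). ATG5 had a difference of -0.04, with a 95% interval from -0.14 to 0.06.

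Relative to untreated cells of the same line and time, 17 of 80 comparisons of a member were called, 14 of them in KG-1a and 3 in MV4-11, 13 toward higher and 4 toward lower levels. In KG-1a, ULK1, GABARAPL1 and BNIP3L rose with 8AA at both times, MAP1LC3B rose with 8AA at 8 h, and SQSTM1, MAP1LC3B and WIPI1 rose with 8CA at 24 h. The 4 calls toward lower levels were also in KG-1a, of WIPI1 with 8AA at 8 h, ATG5 with each drug at 24 h and ATG7 with 8AA at 24 h. In MV4-11, MAP1LC3B rose with 8CA at 24 h, and GABARAPL1 and BNIP3L with 8AA at 8 h. In MV4-11, 0 of the 10 members were called with 8CA at 8 h, where 10.4% of the 12800 genes tested were called. 2 were called with 8AA at 8 h (29.2% of all genes), 1 with 8CA at 24 h (43.9%) and 0 with 8AA at 24 h (29.1%). In KG-1a, 0 were called with 8CA at 8 h, where 0.881% of the 12711 genes tested were, 5 with 8AA at 8 h (34.7%), 4 with 8CA at 24 h (47.4%) and 5 with 8AA at 24 h (51.9%). Beside the 3 counts of 0 from edgeR, 2 members in MV4-11 with 8CA at 8 h, 0 in MV4-11 with 8AA at 24 h and 1 in KG-1a with 8CA at 8 h had an unadjusted p under 0.05, and DESeq2 called 0 in each. At 24 h the share of members called in MV4-11 lay below the share of all genes, and in KG-1a it was near it. The median absolute log2 fold change of the members at 24 h was 0.15 with 8CA and 0.10 with 8AA in MV4-11, against 0.21 and 0.16 over all genes. In KG-1a it was 0.17 and 0.26, against 0.23 and 0.25 over all genes. The counts are relative to each library's total, so they show neither the number of cells nor the amount of RNA per cell. A rise or fall here is relative to the other genes of the same libraries, not a change in RNA molecules per cell.

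**Figure D2:**
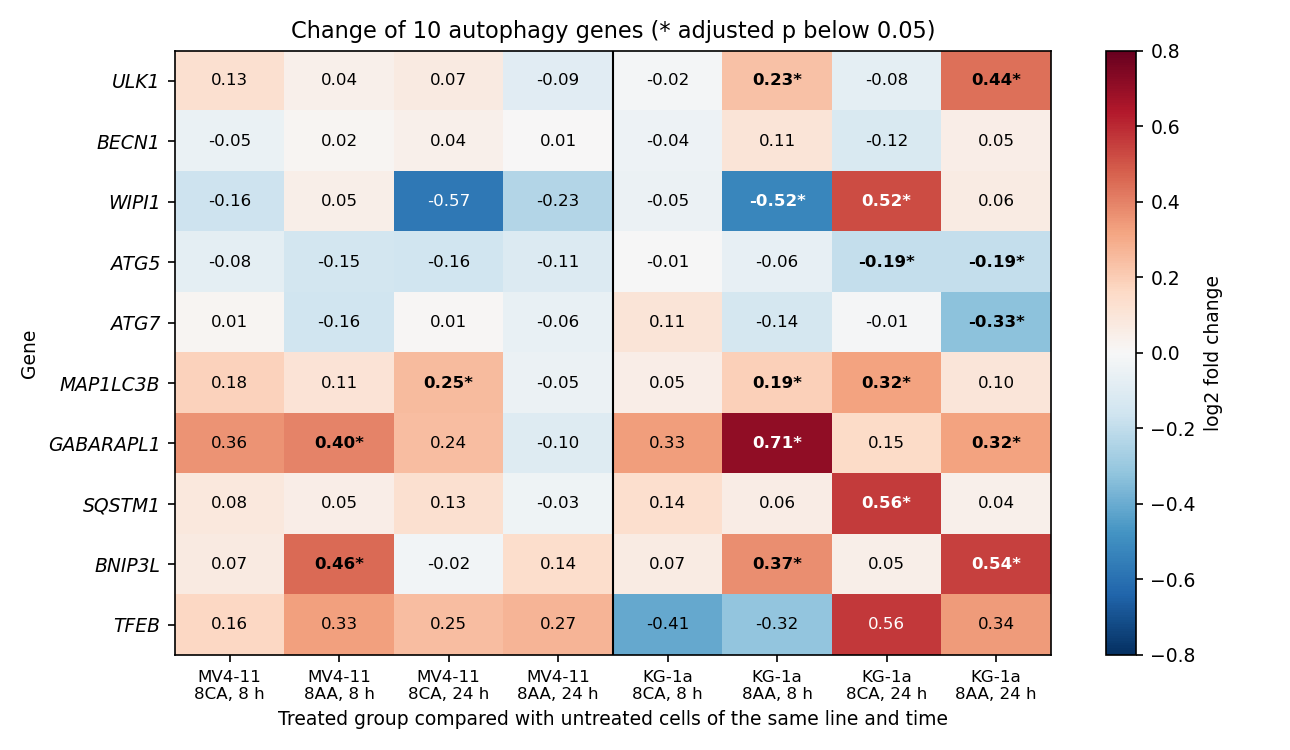
Log2 fold change against untreated cells of the same line and time for the 10 genes (rows) in the 8 treated groups (columns), red higher and blue lower, with an asterisk where the adjusted p of edgeR's test was below 0.05. The 17 calls fall in 5 of the 8 columns, and 14 of the 17 are in KG-1a.

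Of the initiation genes, ULK1, the kinase at the start of the pathway, rose with 8AA in KG-1a at both times. In KG-1a at 24 h, ULK1 was at 50.2 and 48.7 CPM in the untreated libraries, 46.9 and 46.8 under 8CA, and 67.3 and 66.8 under 8AA. Both 8AA libraries were above all 4 others. The log2 fold change with 8AA was 0.44 (SE 0.05, adjusted p = 4.29e-06), and it was 0.43 and 0.44 without replicate A and without replicate B of that group. At 8 h, ULK1 was at 44.0 and 42.9 CPM untreated, 42.9 and 43.1 under 8CA, and 50.7 and 51.5 under 8AA, a log2 fold change with 8AA of 0.23 (SE 0.05, adjusted p = 0.00333). Both 8AA libraries were again above the other 4, and the 8CA and untreated libraries overlapped. In MV4-11 the 12 libraries lay between 22.0 and 28.9 CPM, and the log2 fold changes of ULK1 between -0.09 and 0.13, with no call.

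WIPI1, the PI3P-binding protein, fell with 8AA at 8 h and rose with 8CA at 24 h in KG-1a. At 8 h it was at 16.1 and 17.2 CPM in the untreated KG-1a libraries, 16.2 and 16.1 under 8CA, and 11.8 and 11.5 under 8AA. It fell by 0.52 on the log2 scale with 8AA (SE 0.09, adjusted p = 0.000248), with both 8AA libraries below the other 4. At 24 h it was at 21.4 and 20.3 CPM untreated, 29.3 and 30.6 under 8CA, and 22.7 and 20.8 under 8AA. It rose by 0.52 with 8CA (SE 0.07, adjusted p = 3.86e-05), with both 8CA libraries above the other 4, and the 8AA and untreated libraries overlapped. In untreated KG-1a itself, WIPI1 was higher at 24 h than at 8 h by 0.32 (SE 0.08, adjusted p = 0.0349), where 4.45% of all genes were called. That call was lost when any one of the 4 libraries was left out, with adjusted p of 0.165 without 8 h replicate A, 0.108 without 8 h replicate B, 0.237 without 24 h replicate A and 0.134 without 24 h replicate B, and also with DESeq2 (0.129). With all 24 libraries in the fit, the call of WIPI1 in untreated KG-1a was lost as well. In MV4-11, WIPI1 had 19 to 53 reads per library and no call. Its log2 fold change with 8CA at 24 h there was -0.57, with a 95% interval from -1.28 to 0.13, from 29 and 53 reads untreated and 27 and 34 reads treated.

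BECN1, the scaffold of the class III PI3-kinase complex, was called in none of the 8 comparisons with untreated cells. Its libraries lay between 88.0 and 97.6 CPM in MV4-11 and between 54.8 and 67.1 CPM in KG-1a. The log2 fold changes ran from -0.12, with 8CA in KG-1a at 24 h (95% interval -0.25 to -0.00031, adjusted p = 0.0919), to 0.11, with 8AA in KG-1a at 8 h (95% interval -0.02 to 0.23).

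The conjugation genes ATG5 and ATG7 had calls against untreated cells only toward lower levels, all in KG-1a at 24 h. ATG5, which forms the E3-like complex of the ATG8 conjugation system with ATG12 and ATG16L1, was at 46.1 and 42.4 CPM in untreated KG-1a at 24 h, 39.8 and 37.7 under 8CA, and 37.0 and 40.6 under 8AA. All 4 treated libraries were below both untreated ones. It fell by 0.19 on the log2 scale with 8CA (SE 0.07, adjusted p = 0.0277) and by 0.19 with 8AA (SE 0.07, adjusted p = 0.0249), and the comparisons share their untreated libraries. The call with 8CA was lost without 8CA replicate B (adjusted p = 0.178) and without untreated replicate A (0.19), and the call with 8AA without 8AA replicate A (-0.13, adjusted p = 0.147; -0.26 without replicate B, adjusted p = 0.0035) and without untreated replicate A (0.182). Both were also lost with DESeq2, with library-size or upper-quartile scaling, and with the 6 libraries of KG-1a at 24 h alone. In MV4-11 the log2 fold changes of ATG5 were negative in all 4 treated groups, from -0.16 to -0.08, with no call.

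ATG7 was at 18.2 and 18.0 CPM in untreated KG-1a at 24 h, 19.1 and 16.8 under 8CA, and 13.4 and 15.4 under 8AA. Both 8AA libraries were below the other 4, and the 8CA libraries spanned the untreated ones. It fell by 0.33 with 8AA (SE 0.09, adjusted p = 0.00747). Without 8AA replicate A the log2 fold change was -0.23 (adjusted p = 0.0679), and without replicate B it was -0.43 (adjusted p = 0.00122). In MV4-11, ATG7 lay between 46.3 and 56.3 CPM. Its change with 8AA at 8 h there, from 51.4 and 56.3 CPM to 46.3 and 50.0, was -0.16 (SE 0.06, adjusted p = 0.0586), and under 4 of the 13 alternatives it passed the test. The table also holds VGLL4, a gene on the opposite strand whose span overlaps that of ATG7, at up to 2357 reads, and whether the counting used strand is not given in the sources used here.

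Of the ATG8 proteins, MAP1LC3B, the source of LC3B, rose with 8CA at 24 h in both lines. In MV4-11 it was at 43.3 and 44.8 CPM untreated at 24 h, 51.1 and 53.9 under 8CA, and 42.3 and 43.0 under 8AA. The log2 fold change with 8CA was 0.25 (SE 0.06, adjusted p = 0.00228), and both 8CA libraries were above the other 4. Its change with 8CA at 8 h in MV4-11, from 43.6 and 41.6 CPM to 49.0 and 47.6, was 0.18 (SE 0.06, adjusted p = 0.063), and under 4 of the 13 alternatives it passed the test. In KG-1a it was at 97.7 and 94.7 CPM untreated at 24 h, 116.7 and 123.8 under 8CA, and 107.9 and 97.6 under 8AA. The log2 fold change with 8CA was 0.32 (SE 0.05, adjusted p = 0.000183), again with both 8CA libraries on top. With 8AA at 24 h in KG-1a the change was 0.10 (SE 0.05, adjusted p = 0.154), 0.16 without 8AA replicate B (adjusted p = 0.00953) and 0.02 without replicate A. At 8 h in KG-1a, MAP1LC3B was at 88.7 and 88.1 CPM untreated, 92.4 and 91.1 under 8CA, and 102.0 and 99.6 under 8AA. It rose with 8AA by 0.19 (SE 0.05, adjusted p = 0.014), a call lost without 8AA replicate A (adjusted p = 0.0958) or without untreated replicate B (0.0704).

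GABARAPL1, an ATG8 protein of the GABARAP subfamily, had the greatest fold change among the 17 calls. In KG-1a at 8 h it was at 11.1 and 11.2 CPM untreated, 14.9 and 13.1 under 8CA, and 19.4 and 17.1 under 8AA. The groups did not overlap and stood in that order. The log2 fold change was 0.71 with 8AA (SE 0.10, adjusted p = 5.06e-05) and 0.33 with 8CA (SE 0.10), and the latter did not pass the test (adjusted p = 0.159). At 24 h, KG-1a had 12.9 and 14.1 CPM untreated, 15.5 and 14.5 under 8CA, and 16.7 and 17.0 under 8AA. It rose with 8AA by 0.32 (SE 0.10, adjusted p = 0.011), a call that did not hold when untreated replicate A was left out (0.24, adjusted p = 0.132) and kept without either 8AA library (adjusted p of 0.0169 and 0.0228). In MV4-11, with 64 to 130 reads per library, GABARAPL1 was at 3.71 and 4.34 CPM untreated at 8 h, 5.19 and 5.18 under 8CA, and 5.26 and 5.36 under 8AA. It rose with 8AA by 0.40 (SE 0.14, adjusted p = 0.0483). That call was lost without any one of the 4 libraries, with adjusted p of 0.108 without 8AA replicate A, 0.164 without 8AA replicate B, 0.266 without untreated replicate A and 0.0591 without untreated replicate B, and with DESeq2. The call with 8AA was also lost with the RLE scaling of DESeq2 and with the 6 libraries of MV4-11 at 8 h alone. With 8CA at 8 h the change of GABARAPL1 in MV4-11 was 0.36 (SE 0.14, adjusted p = 0.127).

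Of the cargo receptors, SQSTM1, which codes for p62, rose with 8CA at 24 h in KG-1a. There it was at 131.7 and 139.1 CPM untreated, 207.3 and 192.2 under 8CA, and 148.8 and 129.0 under 8AA. Both 8CA libraries were above the other 4, and the 8AA libraries spanned the untreated ones. The log2 fold change with 8CA was 0.56 (SE 0.06, adjusted p = 4.55e-06), a level 1.48 times that of untreated cells. With 8AA it was 0.04 (SE 0.07, adjusted p = 0.64), -0.07 without 8AA replicate A (adjusted p = 0.292) and 0.13 without replicate B (adjusted p = 0.0375). In MV4-11 at 24 h, SQSTM1 was at 154.2 and 163.8 CPM untreated, 168.4 and 179.6 under 8CA, and 154.9 and 156.1 under 8AA. The change with 8CA, 0.13 (SE 0.05, adjusted p = 0.0563), lay just outside the threshold. Under 8 of the 13 alternatives it was inside. SQSTM1 shares part of its span with MGAT4B and MRNIP on the opposite strand, at up to 3761 and 396 reads.

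BNIP3L, a mitophagy receptor also known as NIX, was called with 8AA in 3 of 4 comparisons and with 8CA in none. In MV4-11 at 8 h it was at 56.8 and 50.5 CPM untreated, 62.6 and 49.9 under 8CA, and 80.0 and 67.3 under 8AA. The 8AA libraries were above the other 4, and the log2 fold change was 0.46 (SE 0.10, adjusted p = 0.00313). In KG-1a at 8 h it was at 68.0 and 78.9 CPM untreated, 75.9 and 78.3 under 8CA, and 93.6 and 96.5 under 8AA, a change with 8AA of 0.37 (SE 0.09, adjusted p = 0.00481) that lost its call without untreated replicate A (0.27, adjusted p = 0.0686). At 24 h, KG-1a had 92.2 and 89.1 CPM untreated, 88.4 and 98.8 under 8CA, and 118.1 and 146.7 under 8AA. The change with 8AA was 0.54 (SE 0.09, adjusted p = 8.51e-05), 0.69 without replicate A and 0.38 without replicate B, still called in each case. In untreated MV4-11, BNIP3L was itself higher at 24 h (76.2 and 88.3 CPM) than at 8 h, by 0.62 (SE 0.10, adjusted p = 0.00209), where 5.54% of all genes were called. Without 24 h replicate B that difference was 0.51 (adjusted p = 0.0682). At 24 h the 8AA libraries of MV4-11 were at 92.9 and 88.3 CPM, a change of 0.14 (SE 0.10, adjusted p = 0.30).

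TFEB was called in none of the 8 comparisons. In MV4-11 at 24 h it was at 7.17 and 9.39 CPM untreated, 9.45 and 10.2 under 8CA, and 9.23 and 10.8 under 8AA, with log2 fold changes of 0.25 (SE 0.13, adjusted p = 0.143) and 0.27 (SE 0.13, adjusted p = 0.137). Without untreated replicate B these were 0.45 (adjusted p = 0.0313) and 0.47 (adjusted p = 0.042). At 8 h in MV4-11, TFEB was at 8.88 and 8.68 CPM untreated and 10.4 and 11.6 with 8AA, a change of 0.33 (SE 0.13, adjusted p = 0.0678) that passed the test under 5 of the 13 alternatives. In KG-1a, TFEB had 17 to 32 reads per library, and its change with 8CA at 24 h was 0.56 (95% interval -0.03 to 1.16, adjusted p = 0.113).

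**Figure D3:**
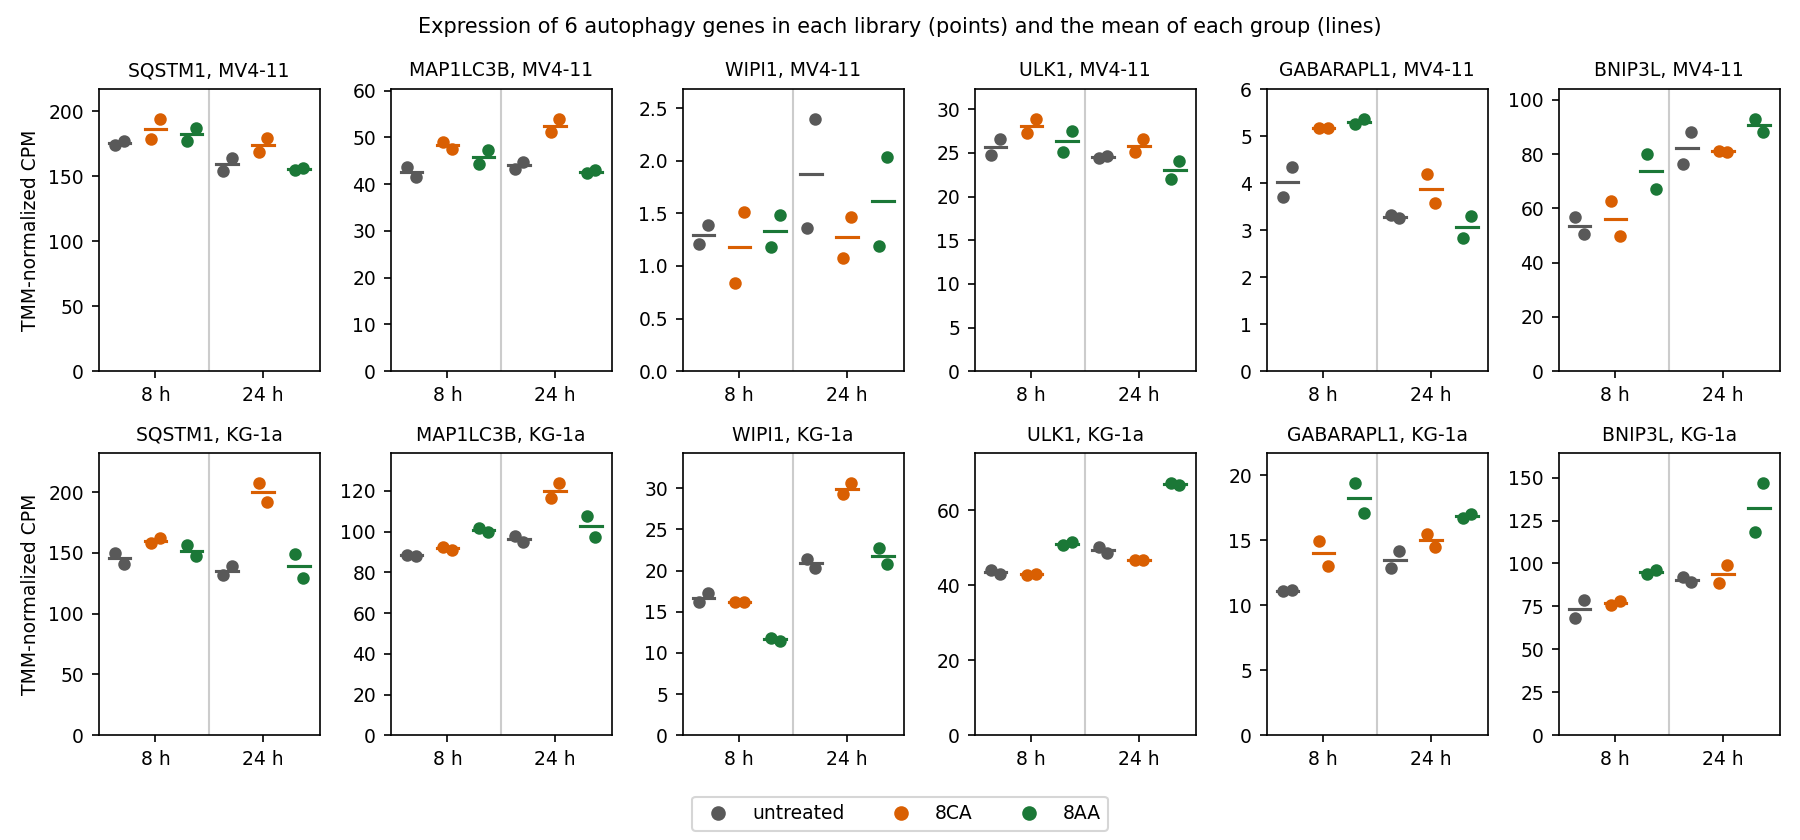
TMM-normalized CPM of SQSTM1, MAP1LC3B, WIPI1, ULK1, GABARAPL1 and BNIP3L in each library (points; grey untreated, orange 8CA, green 8AA) at 8 h and 24 h, with lines at the mean of the 2 libraries of a group, MV4-11 above and KG-1a below; every axis starts at 0. In KG-1a at 24 h the 8CA points stand apart for SQSTM1, MAP1LC3B and WIPI1, and the 8AA points for ULK1, GABARAPL1 and BNIP3L.

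The drugs were given at the same dose and for the same times, so the groups were also compared directly, 8AA minus 8CA, in 40 tests of 10 genes at 2 times in 2 lines, with p-values adjusted over all genes of each comparison. The lowest share of called members was in MV4-11 at 8 h and the highest in KG-1a at 24 h. In MV4-11, 1 of 10 members differed at 8 h, where 6.66% of all genes did, and 2 at 24 h (21.2%). In KG-1a, 4 differed at 8 h (30.4%) and 7 at 24 h (42.0%).

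In KG-1a at 24 h, 3 of the 7 were higher with 8AA and 4 were higher with 8CA. ULK1 was higher with 8AA by 0.52 (SE 0.05, adjusted p = 1.45e-06), BNIP3L by 0.50 (SE 0.09, adjusted p = 0.000281) and BECN1 by 0.18 (SE 0.06, adjusted p = 0.0225). SQSTM1 was lower with 8AA than with 8CA by -0.52 (SE 0.06, adjusted p = 1.11e-05), WIPI1 by -0.46 (SE 0.07, adjusted p = 0.000131), ATG7 by -0.32 (SE 0.09, adjusted p = 0.0105) and MAP1LC3B by -0.22 (SE 0.05, adjusted p = 0.00335). Without 8AA replicate A, ATG7 (-0.22, adjusted p = 0.0899) and BECN1 (0.16, adjusted p = 0.0539) lost the call, and without replicate B all 7 kept it. Without 8CA replicate A, BECN1 (adjusted p = 0.178) and ATG7 (0.143) lost it, and without 8CA replicate B, MAP1LC3B (0.0545). BECN1 was also lost with DESeq2 (0.0689) and with the libraries of the comparison's 3 groups alone (0.0564). ATG5 had a difference between the drugs of 0.00051, with a 95% interval from -0.14 to 0.14.

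In KG-1a at 8 h, ULK1 (0.25, adjusted p = 0.00254), GABARAPL1 (0.38, adjusted p = 0.00653) and BNIP3L (0.30, adjusted p = 0.0179) were higher and WIPI1 was lower (-0.47, adjusted p = 0.000695) with 8AA than with 8CA. The difference of BNIP3L lost its call without any one of the 4 libraries (adjusted p of 0.115, 0.0682, 0.0602 and 0.0999 without 8CA replicates A and B and 8AA replicates A and B), and that of GABARAPL1 without 8CA replicate B or 8AA replicate A (0.0915 each). In MV4-11, BNIP3L was higher with 8AA at 8 h (0.38, SE 0.10, adjusted p = 0.0329), a call lost without 8CA replicate B (0.23, adjusted p = 0.269) or 8AA replicate A (0.25, adjusted p = 0.223). At 24 h in MV4-11, MAP1LC3B was lower with 8AA than with 8CA (-0.30, SE 0.06, adjusted p = 0.00183), and so was SQSTM1 (-0.16, SE 0.05, adjusted p = 0.0389). The call of SQSTM1 was lost without 8CA replicate B (adjusted p = 0.199), 8AA replicate A (0.108) or 8AA replicate B (0.107). ULK1, the member with the clearest difference in KG-1a, had a difference of -0.16 in MV4-11 at 24 h, with a 95% interval from -0.33 to -0.0011 and an adjusted p of 0.144.

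**Figure D4:**
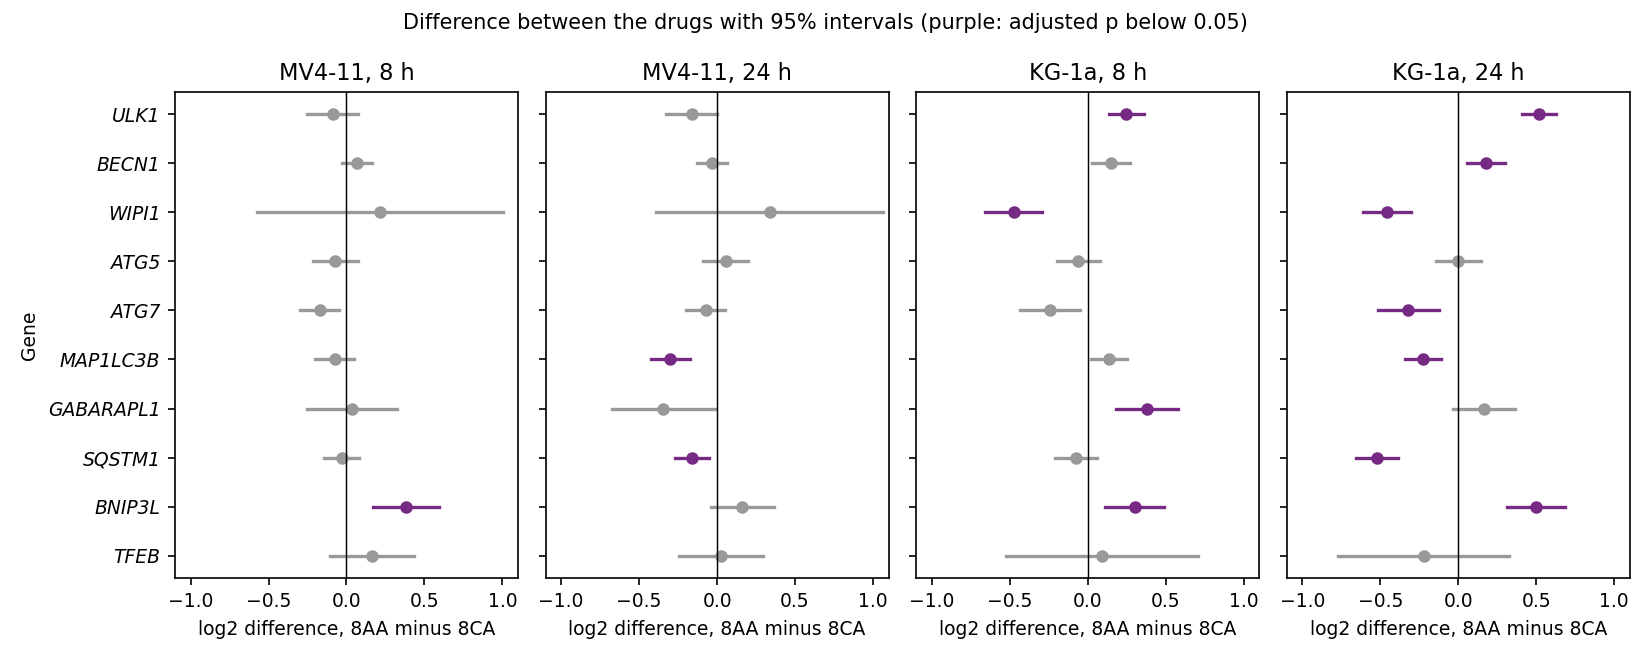
Log2 difference 8AA minus 8CA of each gene with its 95% interval (horizontal lines) in MV4-11 and KG-1a at 8 h and 24 h; purple marks an adjusted p below 0.05 by edgeR's test. The panels hold 1, 2, 4 and 7 purple genes, and in KG-1a at 24 h ULK1, BECN1 and BNIP3L lie to the right and WIPI1, ATG7, MAP1LC3B and SQSTM1 to the left.

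Whether a response grew with time was tested as the difference of the 24 h and 8 h responses. In KG-1a with 8CA, the responses of WIPI1 (0.57, SE 0.11, adjusted p = 0.00183), SQSTM1 (0.43, SE 0.09, adjusted p = 0.00336) and MAP1LC3B (0.27, SE 0.08, adjusted p = 0.0211) were higher at 24 h than at 8 h, which is 3 of 10 members where 23.9% of all genes were called. The difference of MAP1LC3B lost its call when any of 6 of the 8 libraries was left out, at an adjusted p of at most 0.108. In KG-1a with 8AA, WIPI1 alone of the members was called (0.58, SE 0.11, adjusted p = 0.00249; 18.3% of all genes), from -0.52 at 8 h to 0.06 at 24 h. It was 0.52 without KG-1a 8AA 24 h replicate A and 0.64 without replicate B, both called. In MV4-11, edgeR called 0 members with 8CA (16.3% of all genes) and 0 with 8AA (4.63%), DESeq2 called 0 in both, and 0 and 2 members had an unadjusted p under 0.05.

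The response of MV4-11 was set against that of KG-1a, as MV4-11 minus KG-1a, in the fit of all libraries. For 8CA at 24 h, the lines differed for SQSTM1 (-0.41, SE 0.09, adjusted p = 0.00293) and WIPI1 (-1.07, SE 0.30, adjusted p = 0.0209). That is 2 of 10 members where 11.2% of all genes were called. SQSTM1 responded less in MV4-11. The estimates of WIPI1 in the fits of the single lines had opposite signs, -0.57 in MV4-11, not called, and 0.52 in KG-1a. The difference of WIPI1 rested on low counts in MV4-11 and was lost without MV4-11 untreated 24 h replicate B (-0.60, adjusted p = 0.398) or MV4-11 8CA 24 h replicate A (-0.86, adjusted p = 0.154). MAP1LC3B, called in both lines, had a difference of -0.04 with a 95% interval from -0.21 to 0.12. For 8AA at 24 h, ULK1 responded less in MV4-11 (-0.51, SE 0.09, adjusted p = 0.000181), the single call among the 10 members (22.3% of all genes), still called without KG-1a 8AA 24 h replicate A (-0.50) or replicate B (-0.59). BNIP3L, with a difference of -0.38 (SE 0.14), did not pass the test (adjusted p = 0.0545). At 8 h, edgeR and DESeq2 called 0 members for 8CA (1.15% of all genes) and 0 for 8AA (11.1%), with 0 and 1 at an unadjusted p under 0.05.

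The other genes of the pathway were taken from a list of 109 autophagy and lysosome genes in 10 roles, without the members, of which 108 are in the table, 105 passed the count filter in MV4-11 and 99 in KG-1a. At 24 h with 8CA, 32 of the 105 rose and 14 fell in MV4-11 (43.8%, against 43.9% of all genes), and 31 of the 99 rose and 20 fell in KG-1a (51.5%, against 47.4%). With 8AA, 14 rose and 8 fell in MV4-11 (21.0%, against 29.1%), and 35 rose and 24 fell in KG-1a (59.6%, against 51.9%). These counts depended on single libraries. When a library was left out, the count was lower with 8CA in both lines and with 8AA in MV4-11. With 8AA in KG-1a it moved in both directions. The ranges over all alternatives are given in the last section. The median log2 fold change over the list lay between 0.04 and 0.05 in the 4 comparisons, and over all genes between 0.0022 and 0.01.

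By role, the transcription factors had 5 of 7 higher and 0 lower with 8CA in MV4-11 (43.9% of all genes were called) and 3 of 6 higher and 0 lower in KG-1a (47.4%). With 8AA, 0 of 7 were called in MV4-11 (29.1%), and 3 of 6 were higher and 0 lower in KG-1a (51.9%). Of 14 autophagy receptors in KG-1a, 7 were higher and 1 lower with 8CA (57.1% called, against 47.4% of all genes), and 7 were higher and 4 lower with 8AA (78.6%, against 51.9%). In MV4-11, 3 rose and 2 fell with 8CA (35.7%, against 43.9% of all genes), and 2 rose and 2 fell with 8AA (28.6%, against 29.1%). The lysosome genes had calls in both directions with 8CA. In MV4-11, 9 of 27 were lower and 6 higher (43.9% of all genes were called). In KG-1a, 7 of 24 were lower and 5 higher (47.4%). No difference between roles or lines in these counts was tested. The counts with 8AA in KG-1a rest on the pair of libraries that stood furthest apart. By role, they were not recounted without each library of that pair.

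The receptors CALCOCO2 (0.51 in MV4-11 and 0.63 in KG-1a) and NBR1 (0.44 and 0.68) rose with 8CA at 24 h in both lines, as did ATG14 (0.58 and 0.46), the subunit that directs the BECN1 complex to autophagosomes. CALCOCO2 also rose with 8AA, by 0.28 in MV4-11 and 0.15 in KG-1a. The latter was called under 7 of 13 alternatives, and was 0.08 and 0.21 without 8AA replicate A and without replicate B. In KG-1a, NBR1 and ATG14 rose with 8AA by 0.41 (0.39 and 0.43 without those libraries) and 0.45 (0.50 and 0.40). In MV4-11 they were not called with 8AA (0.11 and 0.16). Among the lysosome genes GLA fell (-0.26 and -0.49) and HEXA rose (0.51 and 0.42) with 8CA in both lines. HEXA rose with 8AA as well, by 0.48 in MV4-11 and 0.20 in KG-1a. In KG-1a that change was called under 12 of 13 alternatives, and was 0.18 and 0.22 without 8AA replicate A and without replicate B. GLA was not called with 8AA (0.02 and -0.04). BNIP3, the paralog of BNIP3L, fell at 24 h with 8CA in both lines, by 0.89 on the log2 scale in MV4-11 (SE 0.12, adjusted p = 2.37e-05) and by 0.50 in KG-1a (SE 0.10, adjusted p = 0.000723). With 8AA it fell in KG-1a by 0.37 (adjusted p = 0.00463), with -0.43 and -0.32 without 8AA replicate A and without replicate B, both still called. In MV4-11 it fell with 8AA by 0.33 (adjusted p = 0.0399), a call held under only 5 of 13 alternatives. It was lost without untreated replicate A (adjusted p = 0.0621) or B (0.22), without 8AA replicate A (0.213) or B (0.0638), with DESeq2 (0.119), with library-size or upper-quartile scaling, and with all 24 libraries. In KG-1a at 24 h BNIP3 was at 29.2 and 27.1 CPM untreated, 18.8 and 21.2 under 8CA, and 22.5 and 21.0 under 8AA, so the treated libraries lay below the untreated ones for BNIP3, while BNIP3L was above them with 8AA. GABARAP, the ATG8 protein that gives the subfamily of GABARAPL1 its name, rose with 8AA at 24 h in both lines (0.33, SE 0.05, in MV4-11 and 0.42, SE 0.07, in KG-1a). In KG-1a the change was 0.32 without 8AA replicate A and 0.51 without replicate B, still called in each case.

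The sestrins SESN2 and SESN3, inhibitors of mTORC1, had larger differences between the drugs at 24 h than any of the 10 members in the same line. Both were picked from the wider list for the size of that difference, while the members were not. SESN2 in KG-1a at 24 h was at 8.82 and 9.95 CPM untreated, 62.8 and 63.4 under 8CA, and 7.43 and 6.25 under 8AA, a log2 difference 8AA minus 8CA of -3.20 (SE 0.08, adjusted p = 1.22e-13), or -3.33 and -3.09 without 8AA replicate A and without replicate B. In MV4-11 it was at 12.4 and 14.2 CPM untreated, 20.2 and 21.9 under 8CA, and 9.85 and 11.2 under 8AA, a difference of -1.003 (SE 0.12, adjusted p = 2.91e-05). SESN3 went the other way, with 37.9 and 35.6 CPM untreated, 38.7 and 38.8 under 8CA and 64.2 and 85.2 under 8AA in KG-1a. Its difference was 0.94 (SE 0.10, adjusted p = 2.06e-06), 1.13 without 8AA replicate A and 0.73 without replicate B, and in MV4-11 it was 0.76 (SE 0.12, adjusted p = 0.000413). DDIT4, another inhibitor of mTORC1, rose with 8CA in KG-1a by 2.69 (SE 0.07, adjusted p = 4.82e-13), while in MV4-11 its change with 8CA was -0.23 (adjusted p = 0.161). In untreated MV4-11, DDIT4 was at 8.68 and 8.73 CPM at 8 h and at 20.8 and 30.0 at 24 h. Under 8AA at 24 h it was at 13.9 and 17.6 CPM there, between those levels. Compared with untreated cells at 24 h, DDIT4 was lower with 8AA in MV4-11 (-0.70, adjusted p = 0.00128) and in KG-1a (-0.30, adjusted p = 0.0055). The latter was -0.45 without 8AA replicate A and -0.19 without replicate B (adjusted p = 0.048), and its call was lost without untreated replicate B (adjusted p = 0.0559). CCPG1, a receptor for autophagy of the endoplasmic reticulum, was lower with 8AA than with 8CA by -1.02 in KG-1a (SE 0.12, adjusted p = 8.66e-06; -0.78 and -1.29 without 8AA replicate A and without replicate B) and by -0.65 in MV4-11 (SE 0.18, adjusted p = 0.0199), the latter lost with DESeq2 and when any one of the 4 libraries of those groups was left out (adjusted p of at most 0.172).

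**Figure D5:**
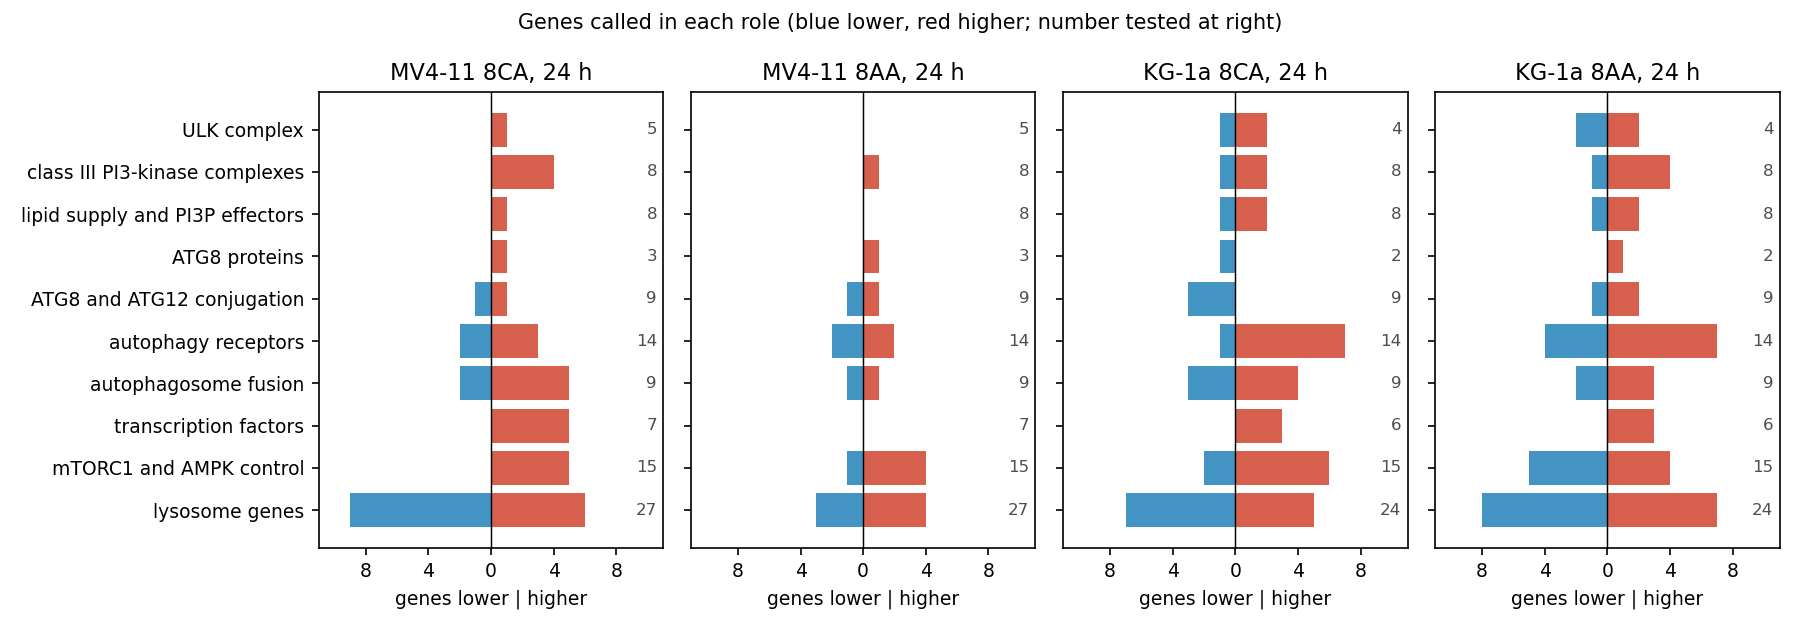
Number of genes of the wider list called lower (blue, to the left) and higher (red, to the right) at 24 h in each of 10 roles, for each line and drug, with the number tested at the right edge of each panel. The lysosome genes have bars on both sides in every panel, and the transcription factors have none in the panel of MV4-11 with 8AA.

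For each member, the gene with the most similar pattern was found among 11475 genes by Pearson's r of log2 CPM over the 24 libraries, after each line's mean was removed. The libraries share groups, lines and depth, so r is a description. SQSTM1 was most like FTH1, the ferritin heavy chain (r = 0.927), GABARAPL1 most like SESN1 (0.875) and BNIP3L most like CYBRD1, a ferric reductase (0.912). ULK1 was most like MXD3 (0.902, with a Spearman's rho of 0.688), MAP1LC3B most like CIR1 (0.883) and WIPI1 most like PPP1R18 (0.850). The r of TFEB, 0.737 with ZNF710, was the lowest of the 10.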

How the data were processed

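RNA of 24 libraries was analysed from the table of raw counts that the authors deposited, whole numbers of reads per gene with no normalization, mapped to libraries by title. The submitters' processing notes name Trimmomatic, STAR 2.6.0, HTSeq 0.11.1, edgeR and the builds hg19 and hg38; the gene positions in the table are not those of GRCh38, and no source used here gives the annotation or the strand setting. Depth was 18633963 to 24520078 counts per library, and with pairs of libraries the precision of a fold change rests on the spread pooled over genes and groups.

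In R 4.3.3, genes were filtered by filterByExpr (minimum count 10), scaled by TMM and tested with edgeR 4.0.16 (quasi-likelihood, two-sided, 1 coefficient per group) on the 12 libraries of a line, or on all 24 for differences between lines, p-values adjusted by Benjamini-Hochberg across every gene tested, and 0.05 as threshold. CPM are TMM-normalized. Fold changes are log2, intervals 95%. Near-identical copies and overlapping genes may share reads with a member. Named genes were the 10 members, the genes of most similar pattern and, in the wider list, those called in the same direction in both lines at 24 h, at most 6 per drug and direction and 3 that differed between the drugs, ranked by the smaller change. The members and lists were chosen with earlier results of these data known. The steps were tested on simulated data. Alternatives were other scalings, filters, sets of libraries, the replicate letter as a block, DESeq2 1.42.0 and leaving out each library.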

Additional observations from a re-analysis of the deposited data

Results flagged for a closer look

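Of the differences tested between times or lines, 7 among the members passed the test of the difference itself. Between 24 h and 8 h, the response to 8CA in KG-1a differed for WIPI1 (0.57, adjusted p = 0.00183), SQSTM1 (0.43, adjusted p = 0.00336) and MAP1LC3B (0.27, adjusted p = 0.0211), and the response to 8AA for WIPI1 (0.58, adjusted p = 0.00249). Between MV4-11 and KG-1a at 24 h, the response to 8CA differed for WIPI1 (-1.07, adjusted p = 0.0209) and SQSTM1 (-0.41, adjusted p = 0.00293), and the response to 8AA for ULK1 (-0.51, adjusted p = 0.000181). The values of SQSTM1, ULK1 and the time differences of WIPI1 passed the threshold under every alternative run. Those of MAP1LC3B and of WIPI1 between the lines did not, and the values without the libraries concerned are given with the results. No group has enough libraries for a test of single outlying samples.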

How the results depend on the processing

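Of 80 comparisons of a member with untreated cells, 17 were called, 10 of those under every alternative and 7 not under at least 1 (ATG5 with 8CA and with 8AA, ATG7 and GABARAPL1 with 8AA in KG-1a at 24 h; BNIP3L and MAP1LC3B with 8AA in KG-1a at 8 h; GABARAPL1 with 8AA in MV4-11 at 8 h), while 9 more were called under at least 1 and 54 under none. Direction turned under at least 1 alternative for 0 of the 17, 2 of the 9 and 18 of the 54. The 2 were with 8AA in KG-1a at 24 h: BECN1 was at -0.0020 without untreated replicate A and at most 0.087, without untreated replicate B, when a library was left out, and SQSTM1 lay between -0.071 without 8AA replicate A and 0.13 without 8AA replicate B (-0.014 without untreated replicate A). The number of members called changed by more than 1.5 times, or to or from 0, as follows, and the cause was not tested; smaller changes over the alternatives other than leaving out a library were 4 to 6 against 5 with 8AA and 3 against 4 with 8CA in KG-1a at 24 h, 6 against 7 for 8AA minus 8CA there, and 8 to 10 against 9 between the untreated lines. In MV4-11 it went with 8CA at 8 h from 0 to 1 with all 24 libraries, library size only or upper-quartile scaling; with 8AA at 8 h from 2 to 1 with the libraries of the 3 groups alone or DESeq2; with 8CA at 24 h from 1 to 2 with those libraries alone, at least 10 counts in every library, no filter, or library-size, RLE or upper-quartile scaling; for 8AA minus 8CA at 8 h from 1 to 0 with those libraries alone and at 24 h from 2 to 1 with all 24; and for the time difference with 8AA from 0 to 1 with no filter. In KG-1a it went for 8AA minus 8CA at 8 h from 4 to 7 with the 6 libraries alone; for the time difference with 8AA from 1 to 2 with library size only, no filter or upper-quartile scaling; and for untreated 24 h minus 8 h from 1 to 0 with all 24 libraries or DESeq2 and to 2 with library size only, no filter or upper-quartile scaling. For the difference between the lines in the response to 8AA at 24 h it went from 1 to 2 with at least 10 counts in every library, DESeq2, library size only, no filter, RLE or upper-quartile scaling.

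Leaving out each library gave 1 to 3 members for the line difference with 8AA at 24 h (3 without KG-1a 8AA replicate B), 1 to 2 for that with 8CA at 24 h, 3 to 7 for 8AA in KG-1a at 24 h (3 without 8AA replicate A or untreated replicate A), 2 to 3 for 8AA minus 8CA in KG-1a at 8 h (2 without 8AA replicate A or 8CA replicate B) and 5 to 7 at 24 h, 1 to 2 for the time difference with 8AA in KG-1a, 0 in each case for untreated KG-1a, 0 to 1 for untreated MV4-11 and for 8AA in MV4-11 at 24 h (1 without untreated replicate B), 1 to 2 for 8AA at 8 h and for 8CA at 24 h in MV4-11, and 0 to 1 at 8 h and 1 to 2 at 24 h for 8AA minus 8CA in MV4-11. The lone sample left in a group is then assumed to vary like the others.

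The labels do not say what the replicate letters share. Among the 3 pairs of MV4-11 groups at 8 h, same-lettered samples deviated together (correlations 0.132, 0.159 and 0.157), but over all 15 pairs of groups in a line the correlations ran from -0.117 to 0.159 in MV4-11 and from -0.0846 to 0.161 in KG-1a, with 6 and 2 above 0.1, so a pairing was not taken for the whole design. With the letter as a replicate block, the count went from 0 to 1 with 8CA at 8 h, from 2 to 4 with 8AA at 8 h, from 1 to 2 with 8CA at 24 h and from 1 to 2 for untreated 24 h minus 8 h in MV4-11, from 1 to 2 for untreated 24 h minus 8 h in KG-1a and from 4 to 6 for 8AA minus 8CA in KG-1a at 8 h. Library size only moved the median of all genes with 8AA in KG-1a at 24 h to 0.11. Over all alternatives, most of them chosen after seeing the data, the wider list's count at 24 h was 30 to 55 against 46 with 8CA and 15 to 29 against 22 with 8AA in MV4-11, and 40 to 54 against 51 and 46 to 65 against 59 in KG-1a; leaving out each library gave 30 to 42 for the first (30 without untreated replicate B), and 62 and 64 for the last without 8AA replicate A and B. WIPI1 in MV4-11 and TFEB in KG-1a had the fewest reads, 19 to 53 and 17 to 32 per library.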
